A study of Astyanax mexicanus with 6 samples.

Results

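In the liver of Tinaja cavefish, 28 of the 27420 genes in the deposited count table met a rule for genes lowered in Tinaja alone. Each stood at least 3-fold below every library of Pachon cavefish and Surface fish, whose means were less than 2-fold apart. The members were chosen by their measured levels: the lowest of the 4 Pachon and Surface libraries had to reach 2 CPM (read counts relative to library size, after scaling with TMM, a method that assumes most genes do not change) and at least 3 times the higher Tinaja library, and the Pachon and Surface means had to differ by less than 2-fold. All 3 contrasts between the populations are therefore part of the choice, and every level below is a description of the chosen genes with no test behind it.

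Astyanax mexicanus, the Mexican tetra, has eyed fish in rivers and several populations of eyeless fish in caves. The study set liver transcripts of cavefish beside those of Surface fish, with 2 libraries each from Tinaja, Pachon and Surface fish. All were made from polyA RNA of liver tissue with a strand-specific kit. The sources used here name no treatment, age or sex for any group. Whether both libraries of a population come from separate fish is not stated either, so the SDs and tests rest on a spread between samples that may be technical. Library totals lay between 22168622 and 29521610 counts. In bulk tissue, fewer cells of a type and less RNA per cell cannot be told apart. The counts also rest on alignment to a single genome build, and whether Tinaja reads align to it as well as the others was not tested.

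The liver clears and stores nutrients, makes bile and secretes most plasma proteins. Cave forms of this species are known for heavy fat stores, a fatty liver and long survival without food, in caves where food arrives rarely. Cave populations share some of these traits and differ in others.

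The table lists genes by Ensembl identifier, and no file used here pairs them with names (0 matched). No function, pathway or cell type is therefore given for any member, and the liver label could not be checked against marker genes. Only a pair of members is printed by identifier, the most abundant and the one with the largest gap between Tinaja and the rest. The others are called by their rank, with rank 1 the highest mean CPM over the 4 Pachon and Surface libraries. CPM is not divided by gene length, so the ranks order reads and not transcripts.

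The rule was narrow. In all, 9274 genes had at least 2 CPM in each of the 4 Pachon and Surface libraries, and 53 of them (0.571%) were also at least 3 times the higher Tinaja library. Of the 53, the 25 whose Pachon and Surface means were 2-fold or more apart were left out, with Pachon higher in 8 and Surface higher in 17. The remaining 28 are 0.302% of the 9274. For scale, 43 genes met the mirrored rule and were raised in Tinaja alone, and 36 were lowered in Pachon alone when Pachon and Tinaja changed places. In the mirrored rule only the Tinaja libraries had to reach 2 CPM, and genes without reads in Pachon and Surface were exempt from the 2-fold limit. Neither count was limited to the 9274 genes.

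**Figure D1:**
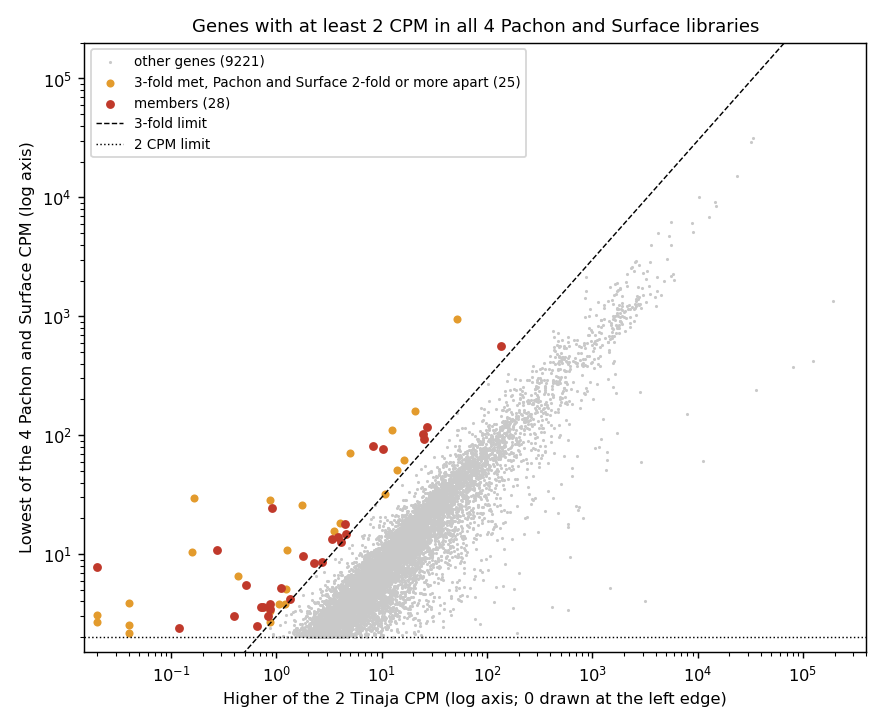
Each point is 1 of the 9274 genes with at least 2 CPM in all 4 Pachon and Surface libraries, with the higher Tinaja CPM on the horizontal axis and the lowest Pachon or Surface CPM on the vertical axis (both log scales). The 28 members lie above the dashed 3-fold line among few neighbours, and the 25 other genes above it had Pachon and Surface means at least 2-fold apart.

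At the 3-fold limit the nearest member and the nearest gene outside differed little, and at the other limits the gap between them was wider. The 3 members nearest the 3-fold limit had ratios of 3.08, 3.09 and 3.17 between the lowest other library and the higher Tinaja library, and the 3 nearest genes outside had 2.98, 2.74 and 2.65. At the 2 CPM limit the lowest members had 2.37, 2.47 and 3.005 CPM in their lowest Pachon or Surface library, and the nearest genes outside had 1.57, 1.52 and 1.47 CPM. For the fold between the Pachon and Surface means, the nearest members had 1.79, 1.73 and 1.72, and the nearest genes outside had 2.06, 2.40 and 2.57.

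The members ran from weakly read to abundant genes. Their mean over the Pachon and Surface libraries was between 2.96 and 1059 CPM with a median of 13.2 CPM, against a median of 11.9 CPM over the 9274 genes. Of the 28, 4 had a mean of at least 100 CPM, 15 lay from 10 to 100 CPM and 9 were below 10 CPM. In Tinaja, 12 members were at or below 1 CPM in both libraries. The gap was modest for most members: the ratio of the lowest other library to the higher Tinaja library was under 5 for 18 members, from 5 to 10 for 5 and at least 10 for 5, with a median of 4.25.

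The most abundant member, ENSAMXG00000034363, had 135.0 and 70.5 CPM in Tinaja 1 and 2, 559 and 1501 CPM in Pachon 1 and 2, and 959 and 1217 CPM in Surface 1 and 2. Its Tinaja libraries were the 2 lowest of the 6, while Pachon and Surface overlapped, with Pachon 1 below and Pachon 2 above both Surface libraries. The means were 103 ± 45.6 CPM in Tinaja, 1030 ± 667 CPM in Pachon and 1088 ± 182 CPM in Surface (SD, n = 2 each). The Tinaja mean was 10.03-fold below the Pachon mean and 10.6-fold below the Surface mean. This gene supplied between 38.5% and 62.9% of the members' reads in a library.

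The next 5 members by abundance had means from 95.9 to 198 CPM over the Pachon and Surface libraries. Rank 2 had 24.5 and 12.0 CPM in Tinaja, 230 and 169 CPM in Pachon, and 291 and 102 CPM in Surface. Rank 3 had 27.1 and 21.4 CPM in Tinaja, 129 and 117 CPM in Pachon, and 172 and 144 CPM in Surface. Both kept a gap of over 4-fold between their lowest other library and the higher Tinaja library, although the Surface libraries of rank 2 were 2.85-fold apart.

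Rank 4 had the widest difference between Pachon and Surface means of all members. It read 9.88 and 10.3 CPM in Tinaja, 109 and 76.9 CPM in Pachon, and 219 and 113 CPM in Surface. Both Surface libraries lay above both Pachon libraries, and the Tinaja mean was 9.21-fold below the Pachon mean and 16.5-fold below the Surface mean. Rank 5 had 8.25 and 3.23 CPM in Tinaja, 80.5 and 96.1 CPM in Pachon, and 97.6 and 120 CPM in Surface. Here the Tinaja libraries differed 2.56-fold from each other and were still at least 9.76-fold below every other library.

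Rank 6 was the steadiest of the abundant members. It had 25.3 and 24.6 CPM in Tinaja, 93.7 and 94.6 CPM in Pachon, and 103 and 92.6 CPM in Surface. The libraries of each population differed by at most 1.11-fold, and the Tinaja mean was 3.78-fold below the Pachon mean and 3.92-fold below the Surface mean. Between its lowest other library and the higher Tinaja library the gap was 3.66-fold, the smallest of ranks 1 to 6. Its spread was small too.

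Rank 7 was the least steady within Pachon and within Surface. It had 2.26 and 1.53 CPM in Tinaja, 13.1 and 75.0 CPM in Pachon, and 8.49 and 42.4 CPM in Surface. Library 2 exceeded library 1 by 5.71-fold in Pachon and by 4.99-fold in Surface, more than the 3.75-fold gap that separated its lowest Surface library from Tinaja 1. Rank 9 had the same order of libraries on a smaller scale, with 4.56 and 4.43 CPM in Tinaja, 19.0 and 40.9 CPM in Pachon, and 14.8 and 27.7 CPM in Surface. Rank 10 had 4.48 and 3.28 CPM in Tinaja, 27.3 and 24.3 CPM in Pachon, and 17.8 and 27.2 CPM in Surface. The Pachon and Surface libraries of rank 10 overlapped, and their means were 1.15-fold apart.

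**Figure D2:**
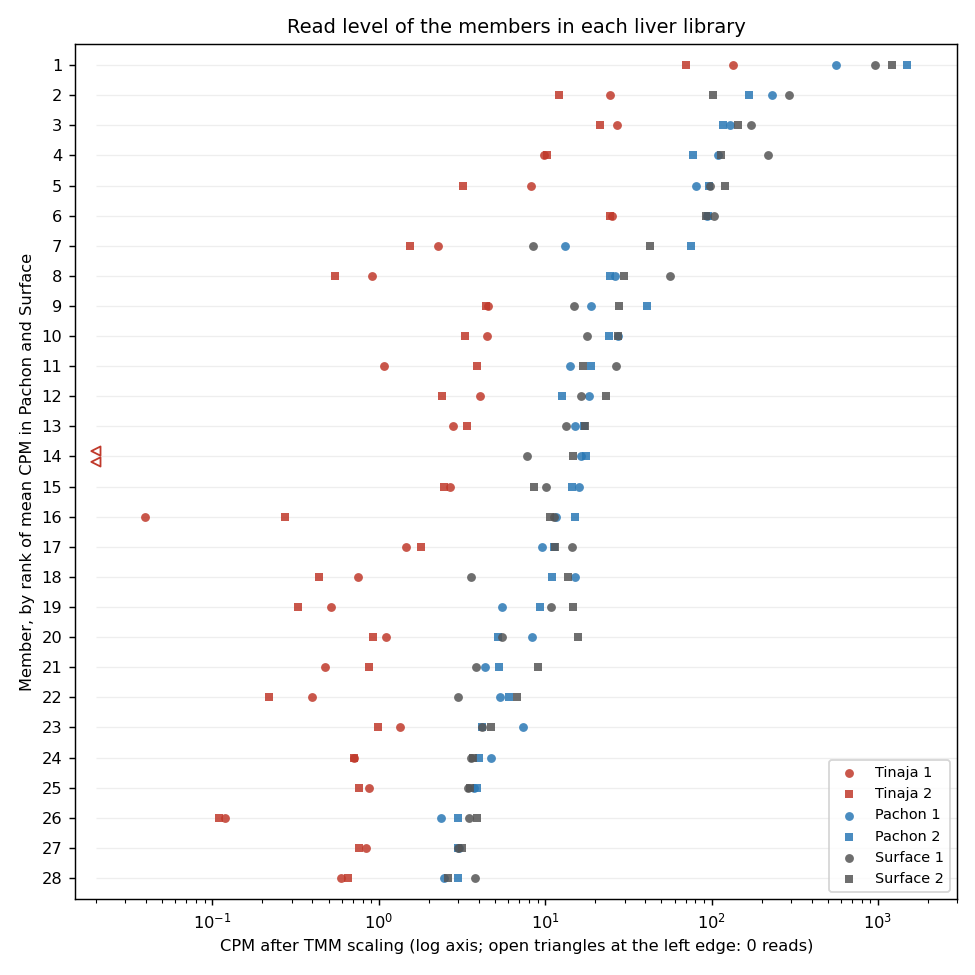
CPM of the 28 members (log axis) in each of the 6 libraries, with members in rows by rank of mean CPM in Pachon and Surface. Red marks (Tinaja) lie left of all blue (Pachon) and grey (Surface) marks in each row, as the rule demands. Blue and grey marks stand apart in 12 of the 28 rows, against 64.1% of the 9274 genes, and the rule kept their means close. The open triangles of rank 14 stand for 0 reads in both Tinaja libraries.

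In a few members the Tinaja signal was at or near nothing. ENSAMXG00000014616, rank 14, had 0 reads in both Tinaja libraries. It had 489 and 605 reads in Pachon 1 and 2 (16.3 and 17.5 CPM) and 190 and 330 reads in Surface 1 and 2 (7.83 and 14.8 CPM). It was the single member with no Tinaja read. With a floor of 3 reads over both Tinaja libraries, or 0.0690 CPM, the pooled Pachon level was about 246-fold and the pooled Surface level about 162-fold above the floor. The floor allows for counting error of the Tinaja reads only. It covers neither that of the Pachon and Surface reads nor the spread between libraries.

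Rank 16 had 1 and 5 reads in Tinaja, 346 and 521 reads in Pachon, and 274 and 240 reads in Surface. Pooled over the libraries and scaled, Pachon exceeded Tinaja by 97.4-fold (exact 95% interval on the counts 44.6 to 266) and Surface exceeded Tinaja by 79.9-fold (36.5 to 219). Rank 16 had the widest gap of the members with Tinaja reads, and its Pachon and Surface libraries kept between 10.7 and 15.1 CPM. The log2 ratio of its mean Tinaja CPM over the mean of the 4 other libraries was -6.28, against -5.49 without Tinaja 1 and -8.26 without Tinaja 2. Rank 26 was read far less than rank 16 in Pachon and Surface and about as little in Tinaja, with 3 and 2 reads in Tinaja, 71 and 103 in Pachon, and 85 and 87 in Surface. Its pooled ratio was 23.5 for Pachon over Tinaja (9.86 to 73.1) and 32.1 for Surface over Tinaja (13.5 to 100.1). These intervals, like those of rank 16, cover counting error only and not the spread between libraries. By the means, rank 16 was 85.0-fold lower in Tinaja than in Pachon and 70.3-fold lower than in Surface.

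The other wide gaps belonged to ranks 8 and 19. Rank 8 had 0.913 and 0.547 CPM in Tinaja, 26.3 and 24.5 CPM in Pachon, and 56.5 and 29.9 CPM in Surface. Tinaja was thus 34.8-fold below Pachon and 59.2-fold below Surface by the means. Rank 19 had 0.516 and 0.328 CPM in Tinaja, 5.48 and 9.36 CPM in Pachon, and 10.9 and 14.7 CPM in Surface, with Tinaja 17.6-fold below Pachon and 30.3-fold below Surface. In both genes each Surface library exceeded each Pachon library, but neither gene was called between Pachon and Surface in edgeR's test. Counted in either direction, Pachon and Surface libraries did not overlap in 64.1% of the 9274 genes, so such a separation is not particular to ranks 8 and 19. The share with Surface above Pachon was not counted. The rule's 2-fold limit made a call less likely, and whether Surface has a separate level here remains undecided. By the means, the fold step from Pachon to Tinaja was larger than that from Surface to Pachon. The rule demands this order of every member.

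The remaining members of 10 CPM or more were closer to the limit. Rank 11 had 1.07 and 3.88 CPM in Tinaja, 14.1 and 19.0 CPM in Pachon, and 26.5 and 16.9 CPM in Surface. Its Tinaja libraries were 3.63-fold apart, with Tinaja 2 the higher, against the usual direction among the members. The log2 ratio of its mean Tinaja CPM over the mean of the 4 other libraries was -2.95, against -2.32 without Tinaja 1 and -4.16 without Tinaja 2. Rank 12, the member nearest the 3-fold limit, had 4.09 and 2.41 CPM in Tinaja, 18.4 and 12.6 CPM in Pachon, and 16.5 and 23.3 CPM in Surface. Rank 15 had 2.70 and 2.46 CPM in Tinaja, 15.9 and 14.6 CPM in Pachon, and 10.1 and 8.54 CPM in Surface. Both Pachon libraries of rank 15 exceeded both Surface libraries, by 1.64-fold in the means.

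Ranks 13 and 17 had Pachon and Surface means that were at most 1.24-fold apart. Rank 13 had 2.78 and 3.39 CPM in Tinaja, 15.1 and 17.2 CPM in Pachon, and 13.4 and 17.4 CPM in Surface. Rank 17 had 1.47 and 1.81 CPM in Tinaja, 9.62 and 11.3 CPM in Pachon, and 14.5 and 11.5 CPM in Surface. Rank 18 differed by having a single low Surface library: it read 0.754 and 0.438 CPM in Tinaja, 15.1 and 11.1 CPM in Pachon, and 3.59 and 13.6 CPM in Surface. Surface 1 of rank 18 lay 3.80-fold below Surface 2 and 4.76-fold above Tinaja 1.

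Among the 9 members below 10 CPM, ranks 24, 25 and 27 had even libraries. They had between 0.711 and 0.873 CPM in Tinaja, between 3.005 and 4.71 CPM in Pachon and between 3.01 and 3.67 CPM in Surface. In these 3 genes the Tinaja libraries differed by at most 1.14-fold from each other. Rank 27 had the most level values of them, with 0.833 and 0.766 CPM in Tinaja, 3.04 and 3.005 CPM in Pachon, and 3.01 and 3.18 CPM in Surface. At 14 to 104 reads per library, rank 27 also shows how few reads stand behind the values at this end of the list.

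Ranks 20, 21 and 22 had uneven Surface libraries. Surface 2 exceeded Surface 1 by 2.86-fold in rank 20, by 2.36-fold in rank 21 and by 2.26-fold in rank 22, while their Pachon libraries differed by at most 1.59-fold. Their Tinaja means were 1.02 ± 0.128, 0.676 ± 0.282 and 0.308 ± 0.126 CPM (SD, n = 2 each). Ranks 23 and 28 lay near the limits of the rule, at 1.17 ± 0.258 CPM in Tinaja, 5.75 ± 2.21 CPM in Pachon and 4.45 ± 0.409 CPM in Surface for rank 23 (SD, n = 2 each). Rank 28, the least abundant, averaged 0.626 ± 0.0433 CPM in Tinaja, 2.72 ± 0.356 CPM in Pachon and 3.19 ± 0.847 CPM in Surface (SD, n = 2 each).

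Over the 27 members with Tinaja reads, the log2 ratio of the mean CPM ran from -6.41 to -1.92 for Tinaja over Pachon and from -6.14 to -1.85 for Tinaja over Surface. The median over all 28 was -2.74 against Pachon and -3.19 against Surface. These sizes follow in part from the rule. For all 15282 genes with enough reads to be fitted, edgeR's fitted log2 fold change had a median of 0 in both contrasts, and for the members it had a median of -2.73 against Pachon and -3.21 against Surface.

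All 28 members passed the filter on low counts, which their Pachon and Surface levels alone would have ensured. In edgeR's quasi-likelihood test, adjusted over all genes, 27 members were called lower in Tinaja than in Pachon, where 4.47% of all genes tested were called lower. Against Surface 27 members were called lower, where 7.66% of all genes were. The same 27 were called in both contrasts, and the exception was rank 7, whose Pachon and Surface libraries were the most uneven. Since the rule used both contrasts, these counts only describe the choice. The count against Pachon was 15 without Tinaja 2, a fit in which the lone Tinaja library is assumed to vary like the libraries of the other populations.

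Conversely, 155 genes were called lower in Tinaja against both other populations and not called between Pachon and Surface. They included 26 of the 28 members (92.9%), which are 16.8% of the 155. The 155 are a looser set than the members. No fold limit was set for them, and a missing call between Pachon and Surface does not show equal levels. This way of choosing genes was tried after the data had been seen.

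Between Pachon and Surface the members had no common direction under TMM. The Pachon mean was the higher in 13 members and the Surface mean in 15, with a median log2 ratio of -0.04 and a range from -0.84 to 0.79. Over the 9274 genes the median was -0.02, so the members' median is not particular to them. The means were within 1.2-fold in 9 members and 1.5-fold or more apart in 7. Both Pachon libraries lay above both Surface libraries in 5 members and below them in 7, so the libraries did not overlap in 12 of 28, while the same held for 64.1% of the 9274 genes. In edgeR's test 1 member was called between Pachon and Surface, against 16.9% of all genes in either direction, and this was rank 15. The count was 0 without Tinaja 1, Tinaja 2, Pachon 1, Pachon 2 or Surface 1, and 2 without Surface 2. The rule kept Pachon and Surface close, so a low count was built in.

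RLE and upper-quartile scaling, other ways to set library sizes, gave the same split between Pachon and Surface as TMM (13 and 15 members). Only total counts gave another. With total counts in place of TMM, Pachon was higher in 24 members and Surface in 4, and the median log2 ratio of the members was 0.52. The median over all genes with reads in each library shifted by a similar amount, and was 0.54 with total counts and -0.02 with TMM. For Tinaja over Pachon that median was -0.47 with total counts, and for Tinaja over Surface it was 0.08. Another scaling multiplies every gene of a library by the same factor, so a similar shift of the members and of all genes was built in. All 28 members had both Tinaja libraries below the 4 others under each of the 4 scalings tried. That was built in: the rule demanded a 3-fold gap, and the TMM factors lay only between 0.822 and 1.33.

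Together the members took few reads. They held 0.0266% of the counts in Tinaja 1 (exact 95% interval 0.0259 to 0.0272) and 0.0142% in Tinaja 2 (0.0138 to 0.0148). In Pachon they held 0.175% (0.173 to 0.177) in library 1 and 0.318% (0.316 to 0.320) in library 2, and in Surface 0.171% (0.170 to 0.173) in library 1 and 0.190% (0.188 to 0.192) in library 2. No molecular identifiers are named, so reads may not be independent molecules and these intervals cover counting error only, and the libraries of Pachon and of Tinaja differed by far more than the intervals. The mean share was 0.0204% ± 0.00871 in Tinaja, 0.247% ± 0.101 in Pachon and 0.181% ± 0.0131 in Surface (SD, n = 2 each), a log2 ratio of -3.59 for Tinaja over Pachon and -3.15 for Tinaja over Surface.

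**Figure D3:**
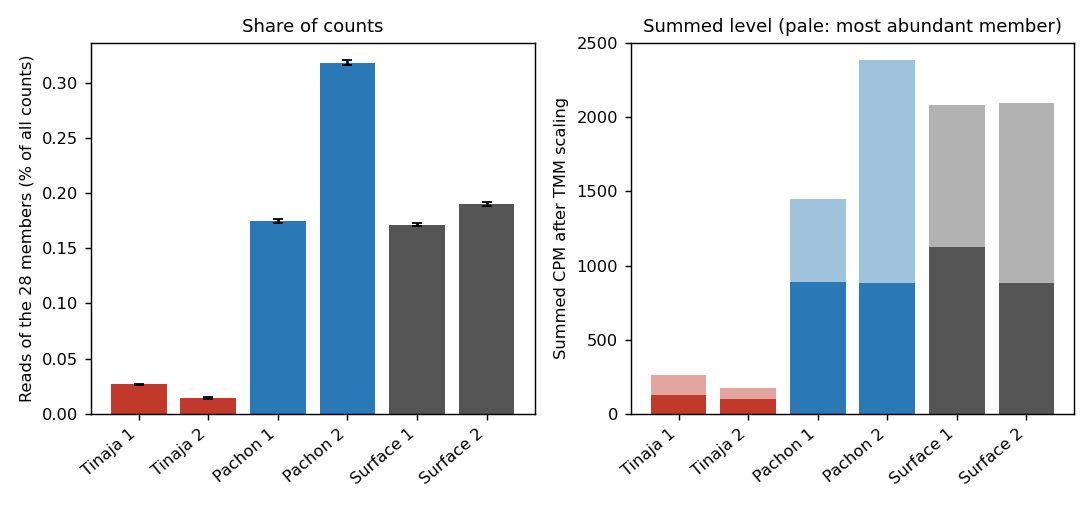
Left, reads of the 28 members as a percentage of all counts in each library, with exact 95% binomial intervals as bars; right, their summed CPM after TMM scaling, with the most abundant member in the pale part. The Tinaja bars are the lowest in both panels, and the excess of Pachon 2 over Pachon 1 lies in the pale part.

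The gene with the most reads summed over the 6 libraries, which is no member, took 8.28% of the counts in Tinaja 1, 15.8% in Tinaja 2, 4.10% in Pachon 1, 0.465% in Pachon 2, 1.11% in Surface 1 and 0.121% in Surface 2. With that gene left out of the totals the log2 ratio of the shares was -2.99 for Tinaja over Surface. On the TMM scale the summed CPM of the members was 262 in Tinaja 1 and 173 in Tinaja 2. It was 1451 in Pachon 1, 2385 in Pachon 2, 2086 in Surface 1 and 2100 in Surface 2. Most of the difference between the Pachon libraries came from rank 1: without it the sums were 127 and 102 in Tinaja, 892 and 884 in Pachon, and 1127 and 883 in Surface.

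The median member differed more between the libraries of a population than the median gene did, in each of the 3 populations. Over the 27 members with reads in every library, the median size of the log2 ratio between libraries 1 and 2 was 0.45 in Tinaja, 0.28 in Pachon and 0.44 in Surface. Over the 9267 genes with reads in every library and at least 2 CPM in each Pachon and Surface library, it was 0.26, 0.20 and 0.26 in the same order of populations. More than 2-fold apart were 4 members in Tinaja, 3 in Pachon and 6 in Surface, or 14.8%, 11.1% and 22.2% of the 27, against 4.73%, 2.48% and 4.54% of the 9267 genes. The Tinaja values rest on few reads, with a median of 31 reads per member in Tinaja 1 and 23 in Tinaja 2, compared with 436.5 in Pachon 1, 512.5 in Pachon 2, 269 in Surface 1 and 340.5 in Surface 2. The part that the read number plays in this spread was not tested.

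The uneven members did not form 1 pattern. In Pachon all 3 members beyond 2-fold (ranks 1, 7 and 9) were higher in Pachon 2. In Surface 5 of the 6 were higher in Surface 2, and rank 2 was higher in Surface 1. In Tinaja ranks 2 and 5 were higher in Tinaja 1, and ranks 11 and 16 were higher in Tinaja 2. Tinaja 1 exceeded Tinaja 2 in 20 of the 27 members (74.1%), against 51.7% of the 9267 genes.

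**Figure D4:**
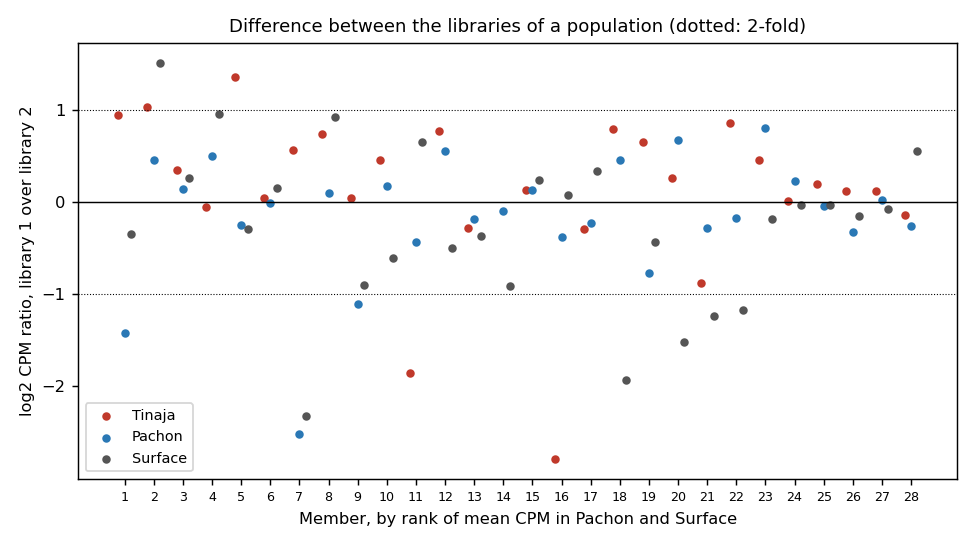
The log2 ratio of library 1 over library 2 within each population (vertical axis) for each member (horizontal axis, by rank); rank 14 has no Tinaja point. Points beyond the dotted lines differ more than 2-fold: 4 in Tinaja, 3 in Pachon and 6 in Surface, with rank 7 low in both Pachon and Surface.

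Across the 27 members, Spearman's rho between the log2 ratios of libraries 1 and 2 was 0.23 for Tinaja with Pachon, -0.28 for Tinaja with Surface and 0.15 for Pachon with Surface. Over the 9267 genes the values were -0.15, -0.02 and -0.05. These are descriptions across genes that share the same 6 libraries, and all are weak.

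The limiting library was most often Surface 1. It was the lowest of the 4 Pachon and Surface libraries in 11 members, Pachon 1 in 7, Pachon 2 in 6 and Surface 2 in 4. How often each library was lowest over all genes was not counted. Surface 1 exceeded Surface 2 in 37.0% of the 27 members with reads in every library, and in 44.0% of the 9267 genes compared above. A library can also keep genes out. Without Tinaja 1 the rule took 65 genes, and without Tinaja 2 it took 35. All 28 members were in both lists. Apart from the renewed scaling, leaving out a Tinaja library can only loosen the rule, so this was nearly built in. Without Surface 2 it took 31 genes and kept 22 of the members, and without Pachon 1 it took 32 and kept 25. Without Pachon 2 it took 36 genes and without Surface 1 it took 35, with 27 members in each list.

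**Figure D5:**
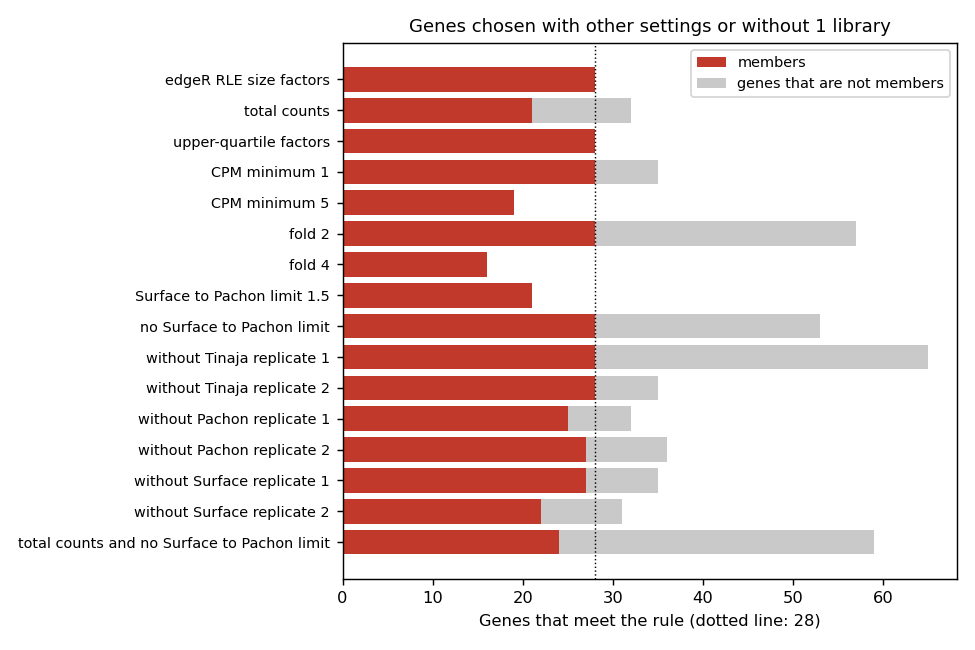
Number of genes that meet the rule (horizontal axis) when a setting changes or 1 library is left out, with the original members in red and other genes in grey. The red part keeps all 28 under RLE and upper-quartile scaling and is shortest, at 16, with a 4-fold limit; the longest bar, at 65 genes, is the rule without Tinaja 1.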

How the data were processed

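The authors deposited read counts per Ensembl gene for 6 liver libraries. The values are whole numbers with unequal totals, as unnormalised counts have. The submitters' processing notes name bcl2fastq 2.20 and the spliced aligner STAR, and the table's name points to genome build 2 and Ensembl release 96. How reads were counted, with which strand setting and with what rule for multiply matching reads, is not given in the sources used here. Near-identical, overlapping and antisense genes are therefore uncertain.

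In R 4.3.3, edgeR 4.0.16 gave TMM factors over all genes and the CPM to which the rule was applied. For calls, genes with too few reads were left out (filter by expression, minimum 10), which kept 15282 genes. All 6 libraries were fitted together with 1 term per population (3 residual degrees of freedom). The robust quasi-likelihood F-test was two-sided, Benjamini-Hochberg adjusted over all genes, and called below 0.05. The common biological coefficient of variation was 25.1%. DESeq2 1.42.0 served as an alternative. The scripts were tested on simulated counts.

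The members, lists and tests were chosen with earlier results of these data known. Named members were the 10 most abundant, the 5 with the widest gap, any with at most 3 Tinaja reads and those next to a limit; the others were described after their values were seen. Lists of pathway genes and cell type markers needed symbols and were not used. No sequence is given, since no table pairs these identifiers with one.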

Additional observations from a re-analysis of the deposited data

How the results depend on the processing

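The number of genes that met the rule was 57 with a 2-fold and 16 with a 4-fold limit in place of 3-fold, 53 with no limit between Pachon and Surface, and 31 to 65 without 1 library, the highest without Tinaja 1. After the data were seen, total counts with no such limit were tried (59 genes), as were edgeR's calls in place of the rule (155). The number stayed within 1.5 times of 28 under the other settings, but with total counts 21 members were among the 32 genes: 5 of the members failed the limit between Pachon and Surface and 4 the 3-fold limit. Members called lower against Pachon numbered 15 to 26 without 1 library (15 without Tinaja 2), and against Surface 21 to 26. A population left with 1 library is assumed in these fits to vary like the others. Members called between Pachon and Surface numbered 2 with total counts, 0 with DESeq2's Wald test (3 at an unadjusted p under 0.05), 0 with the replicate block (4 unadjusted, as with edgeR without it), and 0 to 2 without 1 library (2 without Surface 2), against 1 with all; the causes were not tested. Replicate numbers are not stated to pair libraries; deviations of same-numbered libraries had correlations of -0.124 (Tinaja, Pachon), 0.016 (Tinaja, Surface) and 0.034 (Pachon, Surface). With the replicate block 25 members were called lower against Pachon and 27 against Surface, and 28 against Pachon with the Tinaja numbers crossed. The log2 ratio of the members' share of counts in Tinaja over Surface was -3.67 to -2.77 without 1 library. Of 243 values of single members' levels under other scalings or without 1 library, 239 moved by less than the spread between libraries, 4 moved by more, all with total counts, and 0 changed direction. That spread is wide where libraries differ, and it pools the Pachon and Surface libraries, so it includes any difference between these populations. With each Tinaja library at least 3-fold below the others by the rule, the direction could hardly change. The ratio of Tinaja over the mean of the 4 other libraries (given as log2) moved by over 1.5 times in rank 2 (-3.44; -4.06 without Tinaja 1), rank 5 (-4.10; -4.95 without Tinaja 1), rank 7 (-4.20; -3.50 without Pachon 2), rank 11 (-2.95; -2.32 without Tinaja 1 and -4.16 without Tinaja 2) and rank 16 (-6.28; -5.49 without Tinaja 1 and -8.26 without Tinaja 2). Depth limits the members with few Tinaja reads.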
